A study of Mus musculus with 2 samples.

Results

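The genes described here are 36 genes of the endoplasmic reticulum (ER) and its entry gate, chosen by symbol: chaperones, the translocon and its partners, and stress genes of the same compartment. The 36 symbols matched 37 of the 32285 gene rows, out of 32245 symbols in all, because Ddit3 is listed under a pair of overlapping gene models, of which the second had no counts. They were described across the share of granule transcripts in neutrophils, and in monocytes and lymphocytes. The data are single-cell RNA counts from blood of male mice aged 2 months (young) or 24 months (old), with 1 library per age. After lysis of red cells, live cells positive for CD45, CD11b and Ly6G were sorted and captured on the BD Rhapsody microwell system. The stated purpose of the series is to describe senescent neutrophils in aging. The labels name no strain, no genotype and no number of animals, and both ages were sorted by the same gate.

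With 1 library per age no test between groups is possible, so the values describe these 2 libraries and no p-value is given. Unique molecular identifiers (UMIs, counted molecules) numbered 69599479 over 13599 barcodes in young blood and 128826996 over 14334 barcodes in old blood, at medians of 4246 and 7265.5 UMIs. The libraries shared 53 barcode sequences, 0.39% of the young and 0.37% of the old. Xist, which silences the inactive X of female cells, had 168 and 214 CPM (UMIs per 1000000) in young and old cells, while Y-linked Ddx3y had 1322 and 964 UMIs and Y-linked Eif2s3y 0 in both. The male sex is therefore given as a label only. Cells were clustered without the genes described here and named from markers. Neutrophil-like cells numbered 9844 of 12921 filtered young cells and 8401 of 13517 old cells, with median depths of 4076 and 7513 UMIs. Monocyte-like and lymphocyte-like cells passed the sort too, although its gate was set for neutrophils, so their numbers also depend on the sort.

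Proteins meant for secretion, for the surface or for granules enter the ER while they are being made. The signal recognition particle catches the signal peptide on the ribosome, the SEC61 channel lets the chain through with help from the TRAP complex, signal peptidase removes the signal, and the oligosaccharyltransferase attaches sugar chains. Chaperones and disulphide isomerases then fold the product. When unfolded chains build up, the unfolded protein response raises chaperone genes through XBP1 and ATF6 and, through ATF4, the pro-apoptotic factor CHOP (gene Ddit3). In the neutrophil lineage granule proteins are made in the marrow in an ordered series, and lactoferrin (Ltf), cathelicidin (Camp) and Ngp belong to the specific granules made before release. The share of a cell's UMIs from these 3 transcripts was used as the measure of maturity, a high share marking a less mature cell.

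The promoters of 30 of the 36 genes could be matched to the RefSeq promoter table (build GRCm38.p6), and 6 carried a stress element as written, each within 250 bases before the start. The ER stress element (ERSE, CCAAT and CCACG with 9 free bases between, both strands) was found in 5 of 30 (16.7%), against 0.12% of all 32851 promoters of 300 bases. ERSE-II (ATTGG and CCACG with 1 free base between) and the ATF4 composite site (TTGCATCA) were both found in Herpud1, against 0.037% and 0.89% of all promoters, and did not overlap each other. The XBP1 site UPRE (TGACGTGG) was found in 0 of 30, against 0.68%. The stretches below are shown because Hspa5, Hsp90b1, Calr, Canx and Pdia6 share the same letters, while their transcripts did not all move alike across neutrophil maturity. They read 5′ to 3′ on the gene's strand, leave out annotated exons (for Hspa5, whose element lies in an exon of one annotation, only 5 bases on each side are given), and have the fixed letters of the element in capitals. A match is a description of the letters, not of a bound site.
Hspa5, chr2:34772020-34772048, + strand: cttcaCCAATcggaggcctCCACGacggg
Hsp90b1, chr10:86705510-86705694, - strand, with 2 matches: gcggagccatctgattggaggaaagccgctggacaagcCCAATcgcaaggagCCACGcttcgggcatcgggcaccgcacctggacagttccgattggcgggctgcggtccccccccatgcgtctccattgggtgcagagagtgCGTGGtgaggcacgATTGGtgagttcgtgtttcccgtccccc
Calr, chr8:84846935-84847181, - strand: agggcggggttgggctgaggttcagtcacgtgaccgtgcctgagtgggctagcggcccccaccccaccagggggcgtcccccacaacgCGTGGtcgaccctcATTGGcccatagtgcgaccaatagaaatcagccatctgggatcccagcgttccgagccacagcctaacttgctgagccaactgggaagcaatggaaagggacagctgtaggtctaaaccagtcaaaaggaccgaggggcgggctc
Canx, chr11:50325674-50325923, - strand: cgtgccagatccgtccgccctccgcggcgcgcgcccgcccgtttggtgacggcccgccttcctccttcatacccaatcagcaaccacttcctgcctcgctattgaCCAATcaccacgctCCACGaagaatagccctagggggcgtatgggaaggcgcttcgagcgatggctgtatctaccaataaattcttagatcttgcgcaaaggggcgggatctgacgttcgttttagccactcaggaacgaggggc
Pdia6, chr12:17266339-17266544, + strand: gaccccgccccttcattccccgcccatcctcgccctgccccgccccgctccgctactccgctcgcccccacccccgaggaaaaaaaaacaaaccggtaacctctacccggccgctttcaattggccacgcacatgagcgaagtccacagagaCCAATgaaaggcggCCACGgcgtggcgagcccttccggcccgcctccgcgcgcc
Herpud1, chr8:94386179-94386428, + strand, with the ATF4 composite site before ERSE-II: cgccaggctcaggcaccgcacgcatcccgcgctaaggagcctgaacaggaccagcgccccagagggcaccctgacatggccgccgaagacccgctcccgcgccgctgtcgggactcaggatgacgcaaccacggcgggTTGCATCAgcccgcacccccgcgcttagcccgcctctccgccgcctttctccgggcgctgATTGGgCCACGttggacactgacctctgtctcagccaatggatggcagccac

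Neutrophil-like cells carried few transcripts of the whole set, and the stress genes and Hspa5 were lower in the old library in plain CPM. Summed over the 36 genes, young neutrophil-like cells held 1793 CPM and old ones 1439 CPM. Levels below are a gene's UMIs over all cells of a group, scaled by that group's total to CPM, with the exact Poisson 95% interval in parentheses, which covers counting error only. The 3′ UMI counts molecules, so levels were not divided by transcript length. Of the 29 genes at a mean of 10 CPM or more, 18 had an old interval below the young one and 5 above it, against 76.3% and 15.4% of all genes at that level, so lower values were the rule in this library and no more frequent among these genes. The plot of levels in neutrophil-like cells shows all 36 genes.

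**Figure D1:**
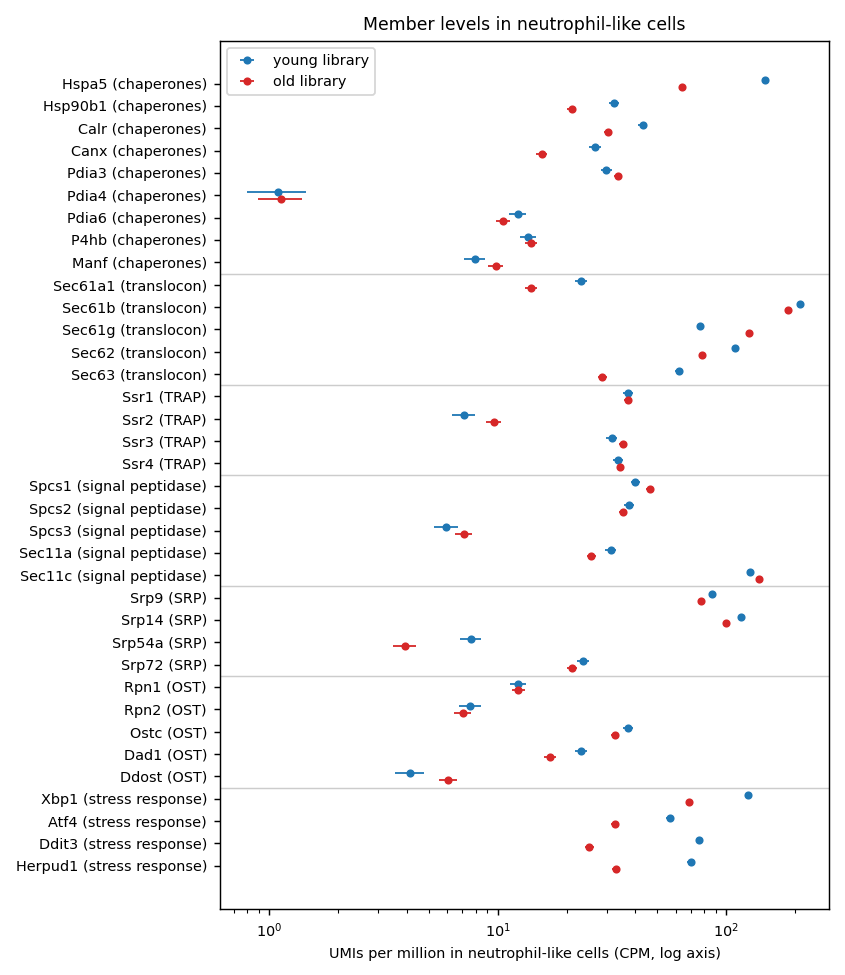
Level of each of the 36 genes in neutrophil-like cells of the young (blue) and old (red) library, in CPM on a log axis, with exact Poisson 95% intervals as bars. Genes are ordered by role, and Hspa5, Xbp1, Ddit3 and Herpud1 stand lower in the old library, whereas Sec61g stands higher.

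Among the chaperones, Hspa5 (BiP, which holds unfolded chains and keeps the stress sensors silent; ENSMUSG00000026864, GRCm38 chr2:34771970-34777547, + strand) stood at 148 CPM (144 to 152) in young and 64.3 (62.5 to 66.2) in old neutrophil-like cells. Calr (calreticulin, a lectin chaperone of glycoproteins) stood at 43.0 CPM (41.1 to 45.0) and 30.4 (29.1 to 31.6). For both genes the old value lay below the young one with no overlap of intervals. Its membrane-bound partner Canx (calnexin) stood at 26.7 and 15.6 CPM, and Hsp90b1 (GRP94, the ER member of the HSP90 family) at 32.3 and 21.0. The disulphide isomerase genes Pdia3, P4hb and Pdia6 stood at 29.9 and 33.7, 13.6 and 14.01, and 12.3 and 10.5 CPM. Pdia4, another isomerase, was nearly absent at 1.09 CPM (0.801 to 1.44) and 1.12 (0.895 to 1.39). Manf, a stress-induced factor of the ER lumen, stood at 7.95 and 9.77 CPM.

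In the translocon, the small channel subunit gene Sec61b was the most abundant of the set in both libraries. It stood at 209.6 CPM (205 to 214) in young and 185.8 (183 to 189) in old neutrophil-like cells. Sec61g, the other small subunit (ENSMUSG00000078974, chr11:16500530-16508484, - strand), had the widest gap upward, from 76.7 CPM (74.2 to 79.4) to 126.2 (124 to 129). The channel-forming subunit gene Sec61a1 was much lower, at 23.2 and 14.04 CPM, so the subunit transcripts were not at equal levels. The post-translational partners Sec62 and Sec63, which serve chains delivered after synthesis, stood at 109.2 and 78.2 CPM and at 61.9 and 28.7 CPM.

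The TRAP genes had near-equal or higher plain levels in the old library. Relative to the median gene, a scale explained below, all 3 measured ones were higher (median 0.72), against 22.7% of all genes. Among cells with under 0.1% granule transcripts 0 of 3 were higher (13.5% of all genes), and at 0.1 to 1% it was 1 of 3 (17.4%). Ssr1 stood at 37.2 CPM in both, Ssr3 at 31.5 and 35.2, Ssr4 at 33.6 and 34.4, and Ssr2 at 7.09 and 9.61 CPM. Of signal peptidase, the catalytic subunit gene Sec11c stood at 127.4 CPM (124 to 131) and 139 (136 to 142), and its alternative Sec11a at 31.2 and 25.7. The accessory subunit genes Spcs1, Spcs2 and Spcs3 stood at 40.1 and 46.2, 37.5 and 35.4, and 5.95 and 7.09 CPM. The signal recognition particle genes Srp9 and Srp14, whose products form the domain that pauses translation, stood at 86.9 and 77.2 CPM and at 116.5 and 99.7 CPM. Srp72, part of the same particle, stood at 23.7 and 21.1 CPM. Srp54a, which encodes the subunit that binds signal peptides, stood at 7.61 and 3.93 CPM, but it has near-identical copies (Srp54b and Srp54c) between which reads could be split, so its level is uncertain. The oligosaccharyltransferase genes Ostc, Dad1, Rpn1, Rpn2 and Ddost stood at 37.3 and 32.7, 23.1 and 17.0, 12.3 and 12.3, 7.58 and 7.01, and 4.12 and 6.06 CPM.

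The 4 stress genes were lower in the old library in plain CPM, where 76.3% of all measured genes had an old interval below the young one. Relative to the median gene, only Ddit3 of the 4 was lower by 1.5-fold, as given below. Ddit3 (ENSMUSG00000025408, chr10:127290774-127296288, + strand) stood at 76.3 CPM (73.7 to 78.9) in young and 25.1 (24.0 to 26.3) in old neutrophil-like cells. Xbp1 (ENSMUSG00000020484, chr11:5520659-5525893, + strand), whose spliced form activates chaperone and degradation genes, stood at 124 CPM (121 to 127) and 68.6 (66.7 to 70.5). Herpud1, a stress-induced partner of the ER degradation machinery, stood at 69.9 CPM (67.4 to 72.4) and 33.0 (31.7 to 34.4), and Atf4 at 56.7 CPM (54.5 to 59.0) and 32.7 (31.4 to 34.0). Intervals did not overlap for any of the 4 genes.

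The median gene was itself lower in the old neutrophil-like cells by a log2 ratio of -0.68, and S100a8 and S100a9 took 10.8% of UMIs in young and 29.7% in old cells. Their part in the ratios was not tested. Ratios are therefore also given relative to the median gene, on the log2(CPM + 1) scale, for genes whose mean over both sides reached 10 CPM, called measured, and counted as higher or lower from 1.5-fold. On that scale 10 of the 29 measured genes were higher and 1 was lower, against 22.7% of all 5748 measured genes higher and 12.8% lower. In plain CPM the split turned to 1 higher (Sec61g) and 9 lower, against 7.01% and 52.3% of all genes. The median of the 29 genes was 0.48 relative to the median gene and -0.20 in plain CPM, and that of all measured genes 0.06 and -0.63. Sec61g was higher on both scales, with a relative log2 ratio of 1.40 ± 0.06 (95% half-width of counting error), and Ddit3 lower on both, with -0.88 ± 0.08 relative to the median gene and -1.57 in plain CPM. Hspa5 at -0.51 ± 0.05, Xbp1 at -0.16 ± 0.05, Atf4 at -0.09 ± 0.08 and Herpud1 at -0.37 ± 0.07 stayed inside 1.5-fold once centred.

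Fewer genes passed 1.5-fold relative to the median gene among cells of the lowest granule range. Of the young neutrophil-like cells, 9671 had under 0.1% of UMIs from Ltf, Camp and Ngp, 106 had 0.1 to 1%, 38 had 1 to 5% and 29 had 5% or more. Of the old ones, 4301, 2539, 1007 and 554 cells fell in these ranges. These transcripts also made up 0.346% of UMIs in old monocyte-like and 0.182% in old lymphocyte-like cells (median cell 0.0436% and 0.0452%), against 0.00775% and 0.0179% in young ones, classes that should lack them. Shares near 0.1% in old cells are thus not set apart from those of such cells. Within the lowest range the sides differed too, at 0.0557% of UMIs in old and 0.00384% in young neutrophil-like cells. The share is a continuous measure, and 1351 old cells (16.1%) lay within 20% of the lowest limit. Among cells under 0.1%, 1 of 29 measured genes was higher (13.5% of all genes) and 1 lower (8.33%) relative to the median gene, which stood at -0.48. In plain CPM 0 were higher and 6 lower, against 4.75% and 39.6%, and the old interval lay below the young one for 22 of the 29 and above it for 1, against 73.6% and 11.9% of all genes. The higher one was Sec61g (1.04 ± 0.07) and the lower one Canx (-0.67 ± 0.17), both named after their values were seen. Between 0.1% and 1%, where the young side held 106 cells, 11 of 27 were higher (17.4% of all genes) and 0 lower (10.7%), and 6 and 0 in plain CPM, against 9.22% and 24.3%. The old interval lay above the young one there for Sec61g, Srp9 and Xbp1 and below it for Ssr3, against 9.73% and 28.0% of all genes.

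The libraries also differed in cluster. The neutrophil-like cells of the libraries fell largely into different clusters: clusters 0, 2 and 4 held 4422, 3161 and 2016 young and 404, 314 and 258 old cells, whereas 1, 3 and 9 were made of 70, 78 and 97 young and 4260, 2296 and 869 old ones. Within cluster 0, the best filled on the young side, 2 of 31 measured genes were higher (6.63% of all genes) and 0 lower (5.15%) in old cells. Within cluster 2 it was 1 of 29 (6.01%) and 2 lower (6.89%), and within cluster 4 it was 1 of 30 (8.81%) and 1 lower (7.81%). Clusters 1, 3 and 9, with few young cells, gave 4 of 27 (15.6%) and 2 lower (13.7%), 6 of 31 (14.4%) and 1 lower (11.1%), and 5 of 29 (12.1%) and 3 lower (11%). The mean of the ratios within clusters left 1 of 29 genes higher, against 6.28% of all genes, and 0 lower, with a median of 0.13. Hspa5 turned direction under it, to 0.22, and Ddit3 kept its direction at -0.35.

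The plot by cluster shows Ddit3, Herpud1 and Hspa5 far lower in the granule cluster than in cluster 0, in both libraries. Ddit3 stood at 83.1 CPM (79.0 to 87.3) in young and 72.1 (58.6 to 87.8) in old cells of cluster 0, and at 18.4 (10.5 to 29.9) and 12.4 (11.2 to 13.6) in cluster 3, the cluster led by Ltf, Camp and Ngp. Hspa5 stood at 175.2 CPM (169 to 181) and 184.3 (162 to 208) in cluster 0 and at 49.5 (35.8 to 66.7) and 45.6 (43.3 to 47.9) in cluster 3. The gap between these clusters was wider than the gap between libraries within either for both genes. Xbp1 was higher in old cells of cluster 0, at 209 CPM (186 to 235) against 153.7 (148 to 159). Herpud1 went from 78.8 and 73.6 CPM in cluster 0 to 29.9 and 20.4 in cluster 3. Sec61g had the higher value in old cells of all 6 clusters, beyond 1.5-fold relative to the median gene in clusters 1 and 3, for example at 141.9 CPM (138 to 146) against 93.2 (74.0 to 116) in cluster 3.

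**Figure D2:**
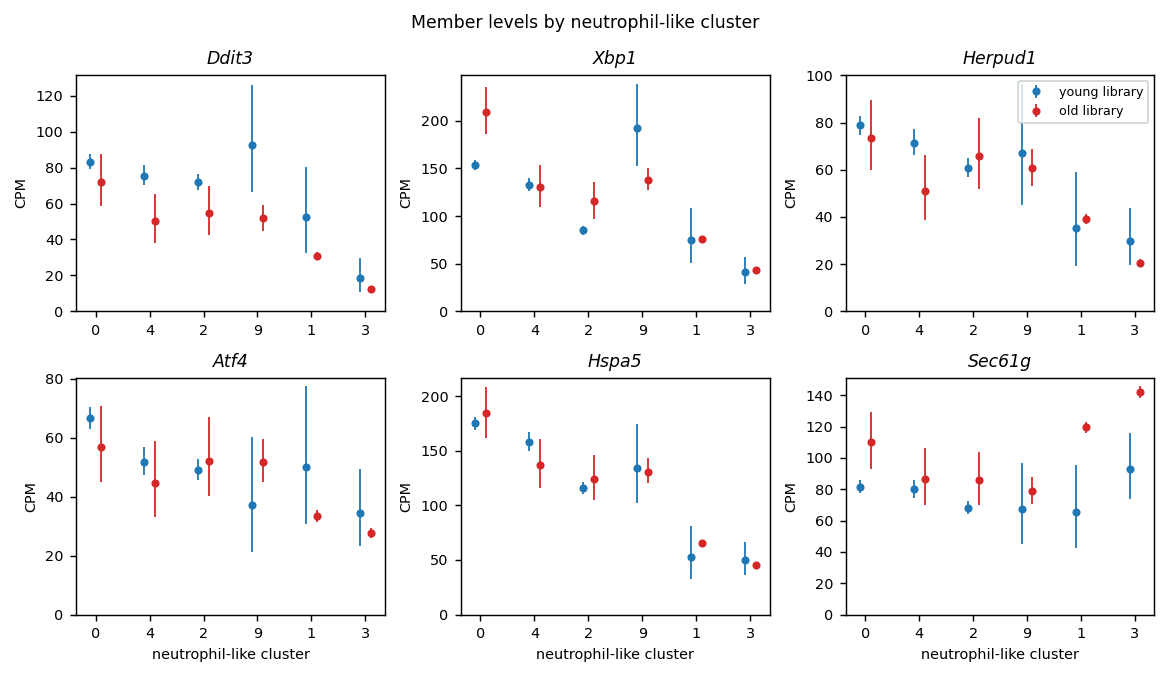
Levels of Ddit3, Xbp1, Herpud1, Atf4, Hspa5 and Sec61g in each neutrophil-like cluster of the young (blue) and old (red) library, in CPM with exact Poisson 95% intervals. Ddit3, Herpud1 and Hspa5 are lowest in cluster 3 of the old library, and Sec61g is higher in the old cells of cluster 3 than in the young ones.

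Across maturity, the genes for folding and glycosylation were higher in granule-high cells, whereas the stress genes were not. In the old library, granule-high cells (5% or more of UMIs from Ltf, Camp and Ngp, 554 cells) were compared with granule-low cells (under 1%, 6840 cells). Relative to the median gene, which shifted by -0.50, 23 of 32 measured genes were higher and 2 lower, against 30.4% and 18.7% of all 5315 measured genes. The median of the 32 genes was 1.0, and that of all genes 0.16. In plain CPM the split was 12 higher and 2 lower, against 14.1% and 37.3%. Granule-high cells were also deeper, with a median of 17702.5 against 6648 UMIs, and S100a8 and S100a9 took 37.6% against 25.9% of their UMIs. Neither was tested for its part in the ratios.

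By role, 7 of 8 measured chaperone genes were higher and none lower, with a median of 1.68. All 4 measured oligosaccharyltransferase genes were higher (median 1.51), as were all 4 TRAP genes (0.99), 3 of 4 signal peptidase genes (1.0), 3 of 5 translocon genes (0.71) and 2 of 3 signal recognition particle genes (0.91). Of the 4 stress genes 0 were higher and 2 lower (median -0.30). The highest relative log2 ratios, named after they were seen, were those of Hsp90b1 (2.42 ± 0.15), Canx (2.28 ± 0.18), Manf (2.09 ± 0.22) and Rpn1 (1.88 ± 0.21). Hspa5, the chaperone outside the count, stood at 0.22 ± 0.12, and at -0.28 in plain CPM. Among the genes with an ERSE printed above, Hsp90b1, Canx, Pdia6 (1.48 ± 0.23) and Calr (0.97 ± 0.16) were thus higher by 1.5-fold or more and Hspa5 was not. Herpud1, with ERSE-II and the ATF4 composite site, was lower at -0.64 ± 0.21.

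**Figure D3:**
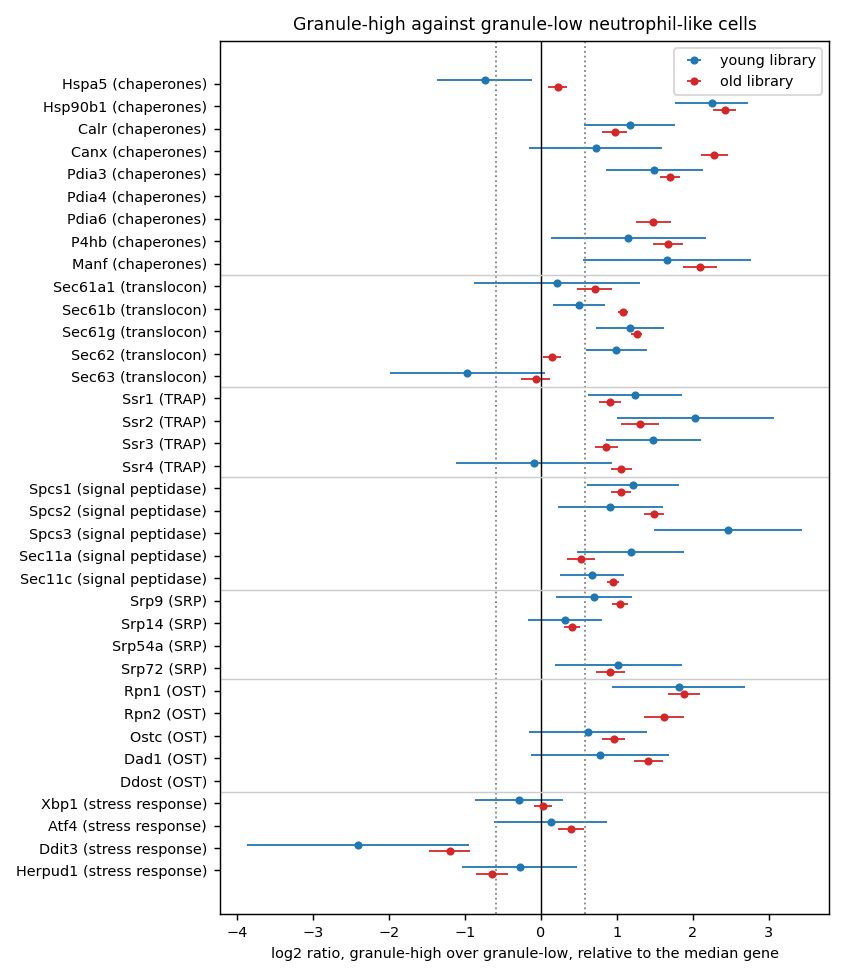
Log2 ratio of granule-high over granule-low neutrophil-like cells, relative to the median gene, in the young (blue, 29 granule-high cells) and old (red, 554 cells) library, with 95% counting intervals. Dotted lines mark 1.5-fold, genes under 10 CPM in the mean of both sides have no point, and in the old library Hsp90b1 and Canx lie farthest to the right and Ddit3 farthest to the left.

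In the old library, the levels by range show that the rise was mostly a step into the last range. Summed over the set, old cells held 1467, 1307, 1301 and 1855 CPM from the lowest to the highest range. Young cells held 1813, 1103, 1185 and 1730 CPM, with the last range below the first. The levels that follow are those of the old library. Hsp90b1 stood at 16.2 (14.7 to 17.8), 12.9 (11.4 to 14.5), 16.5 (14.5 to 18.6) and 58.3 CPM (53.7 to 63.2). Canx stood at 11.7, 9.81, 14.7 and 39.8 CPM (36.0 to 43.9). For both genes the intervals of the first 3 ranges lay far below that of the last. Pdia3 moved earlier, with 26.2 (24.3 to 28.2), 26.3 (24.2 to 28.6), 39.2 (36.1 to 42.6) and 61.4 CPM (56.7 to 66.4). Calr stood at 31.2 (29.1 to 33.4), 25.7 (23.6 to 27.9), 29.2 (26.5 to 32.1) and 40.0 CPM (36.2 to 44.1).

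Hspa5 ran the other way through the first 3 ranges of the old library, at 87.3 CPM (83.8 to 90.9), 56.7 (53.6 to 60) and 36.4 (33.4 to 39.6), and was back at 60.3 (55.6 to 65.3) in the last. Xbp1 had the same shape, at 99.2 CPM (95.5 to 103), 56.8 (53.7 to 60.1), 37.9 (34.8 to 41.2) and 57.5 (52.9 to 62.3). Both genes were thus lowest at 1 to 5%. Ddit3 fell through all 4 ranges, from 38.9 CPM (36.6 to 41.3) over 24.3 (22.3 to 26.5) and 11.9 (10.2 to 13.8) to 9.28 (7.5 to 11.4), the last pair overlapping. Herpud1 stood at 44.9 CPM (42.4 to 47.5), 34.2 (31.8 to 36.7), 20.2 (18.0 to 22.6) and 17.7 (15.2 to 20.5). Atf4 varied less, at 38.0 CPM (35.7 to 40.4), 30.6 (28.3 to 33.0), 26.4 (23.9 to 29.2) and 32.3 (28.9 to 36.0). Relative to the median gene, Ddit3 was lower in granule-high than in granule-low cells by a log2 ratio of -1.20 ± 0.27, while Xbp1 stood at 0.03 ± 0.12 and Atf4 at 0.40 ± 0.17.

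Of the entry genes, Sec61b stood at 176.8 CPM (172 to 182), 168.4 (163 to 174), 178.4 (172 to 185) and 258.3 (249 to 268) in the old library. Sec61g stood at 113.5 CPM (110 to 118), 112.9 (109 to 117), 124 (118 to 130) and 192 (184 to 201). Sec61b was level up to the last range, and Sec61g already stood higher at 1 to 5% than at 0.1 to 1%. Sec11c rose more evenly, at 127 CPM (123 to 131), 131.1 (126 to 136), 147.1 (141 to 153) and 175.9 (168 to 184). Srp9 stood at 69.3 CPM (66.2 to 72.5), 74.2 (70.6 to 77.9), 77.6 (73.2 to 82.2) and 104.1 (97.9 to 111). Its partner Srp14 went down slightly instead, from 107.6 CPM (104 to 112) over 97.3 (93.3 to 102) and 91.1 (86.3 to 96.1) to 96.3 (90.3 to 103). Sec62 went down from 90.4 CPM (86.9 to 94.1) over 77.6 (73.9 to 81.4) and 65.1 (61.0 to 69.3) to 66.2 (61.2 to 71.4). Both directions hold in plain CPM alone: relative to the median gene, granule-high over granule-low cells gave 0.41 ± 0.10 for Srp14 and 0.15 ± 0.12 for Sec62.

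**Figure D4:**
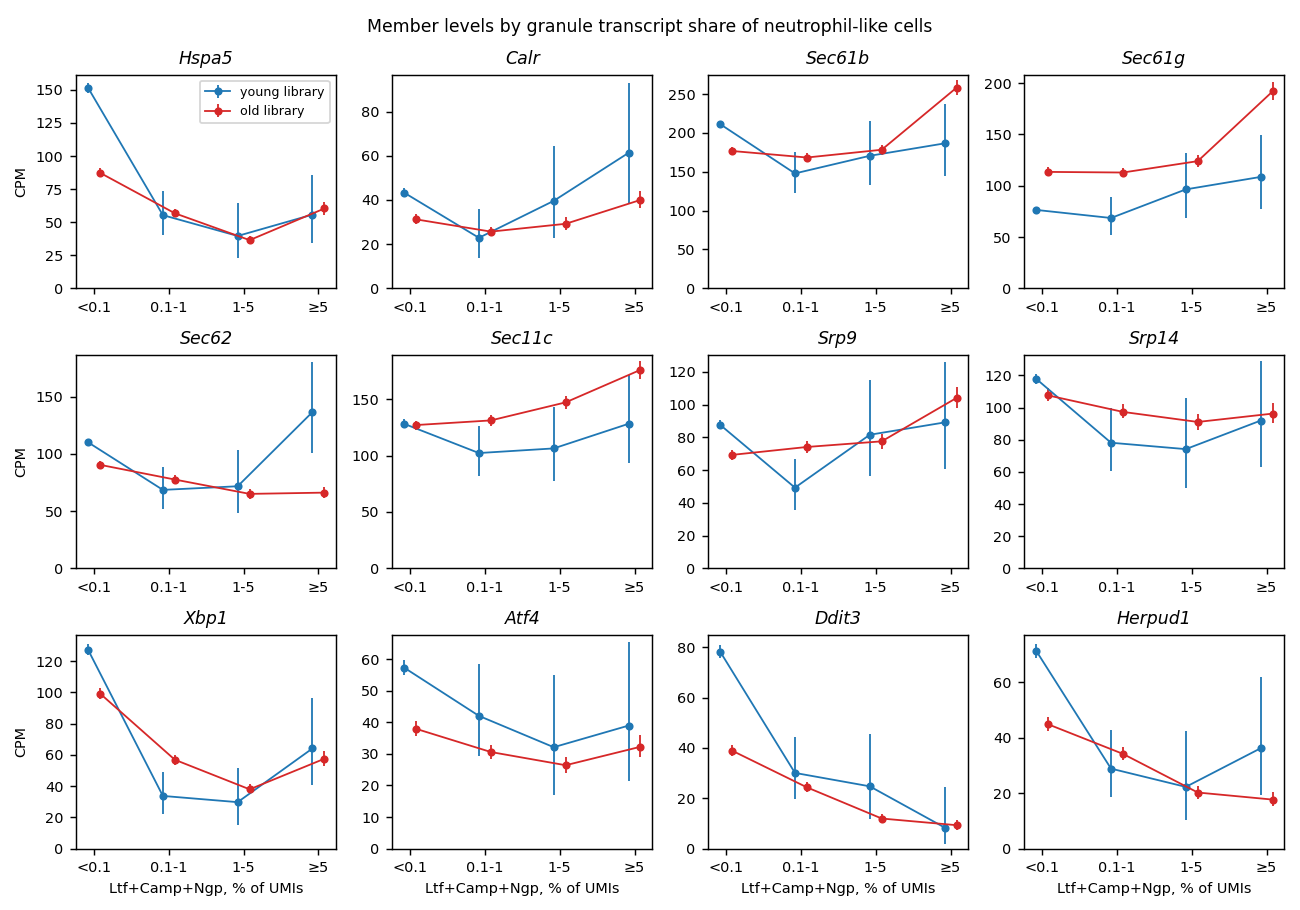
Levels of 12 genes in neutrophil-like cells by the share of UMIs from Ltf, Camp and Ngp, in the young (blue) and old (red) library, in CPM with exact Poisson 95% intervals. In the old library Sec61b and Sec61g rise in the last range, Hspa5 and Xbp1 dip at 1 to 5%, and Ddit3 falls throughout, while young intervals above 0.1% are wide.

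In the young library only 29 cells were granule-high, fewer than the 50 taken elsewhere as the least for a group, and their intervals are wide. There, 21 of 31 measured genes were higher and 3 lower relative to the median gene, against 35.5% and 26.0% of all genes, and 7 and 6 in plain CPM, against 18.1% and 47.1%. Hsp90b1 stood at 97.5 CPM (67.9 to 136) in these cells and 31.9 (30.2 to 33.6) in granule-low cells, a relative log2 ratio of 2.25 ± 0.48. Ddit3 stood at 8.36 CPM (1.72 to 24.4) against 77.3 (74.7 to 80.0), at -2.40 ± 1.46. Those genes thus went the same way as in the old library. Hspa5 was lower in granule-high cells of both libraries in plain CPM, in the young one at 55.7 CPM (34.0 to 86.0) against 149.8 (146 to 153). Its relative ratio was -0.74 ± 0.62 in the young library, whereas in the old one it was positive but inside 1.5-fold. With 67 young cells at 1% or more against those under 0.1%, a contrast added after the data were seen, 10 of 29 were higher, near the 29.4% of all genes, and 5 lower (23.7%), and in plain CPM 4 were higher and 7 lower (14.3% and 46.2%). The same contrast in the old library gave 21 of 31 higher (25.3% of all genes) and 3 lower (16.1%), but 6 higher and 5 lower in plain CPM (10.8% and 38.7%).

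The first 2 markers of classical monocytes in granule-high cells were Chil3 and Ly6c2, at 4133 and 1037 CPM in the old library, and the other 8 markers of that list summed to 69.8 CPM, against 171.3 in granule-low cells. Of the 10 progenitor markers, 9 were in the files and summed to 44.0 CPM in granule-high and 16.8 in granule-low old cells, with none at 0. Young granule-high cells had 2.79 CPM of them, with 8 of the 9 at 0. Whether admixed cells had a part in the folding genes was not tested.

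In the wider pathway of the old library, more folding genes were higher than lower in granule-high cells, and more stress genes lower than higher. In granule-high against granule-low old cells, 6 of 13 measured translocation genes outside the set were higher and 0 lower, with Tram1, a helper of the channel, at 1.12, and the cargo receptors Tmed2 and Tmed10 at 0.53 and 0.02. Of 18 other chaperone and oxidative folding genes 10 were higher and 1 lower, with Ppib (cyclophilin B) at 0.85, Tmx3 at 0.83 and Erp29 at -0.61. Of 10 other glycosylation genes 6 were higher and 1 lower, with Tmem258 at 1.06 and Ost4 at 0.17, both small subunits of the oligosaccharyltransferase. Of 17 other degradation genes 6 were higher and 1 lower, with Vcp, which extracts proteins from the membrane, at 1.14, Edem1 at 0.60 and Selenok at 0.52. Of 6 other genes of the unfolded protein response 1 was higher and 3 were lower. Its 3 sensors, Eif2ak3 (PERK) at -0.88, Ern1 (IRE1) at -0.72 and Atf6 at -0.65, were the ones below. Of 8 ATF4 target genes 1 was higher and 4 lower, with the cystine transporter gene Slc7a11 at -2.54, Cebpb at -2.05 and Sesn2 at -1.33. These counts stand beside 30.4% of all genes higher and 18.7% lower. The young library did not show this for folding: 7 of 19 other chaperone genes were higher and 4 lower, 3 of 10 glycosylation genes higher and 3 lower, and 4 of 12 translocation genes higher and 2 lower, beside 35.5% and 26.0% of all genes. Other degradation genes of the young library did go the same way, with 9 of 18 higher and 1 lower. In that library 3 of 6 response genes were higher and 2 lower, and of 7 ATF4 targets 0 were higher and 5 lower.

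The old library also held 64 cells of a cluster led by Elane, Mpo and Ctsg, genes of the azurophil granules made early in the lineage, and by genes of cell division. This cluster, named neutrophil progenitor-like, had no young cell. All 10 classical monocyte markers stood at 20 CPM or more in it, summing to 10030 CPM, against 12250 CPM in old classical monocyte-like cells. The progenitor markers summed to 2971 CPM in the cluster and 274.9 CPM in those monocyte-like cells. The cluster thus carried both sets of markers, and whether it belongs to the neutrophil or the monocyte lineage cannot be told here. Ltf, Camp and Ngp made up 0.0491% of its UMIs, a share within the lowest range. The measure of maturity used here thus does not place the cluster beyond the granule-high cells. Cells of the cluster held 8384 CPM of the 36 genes, or 245 UMIs per cell, against 1439 CPM and 12.7 UMIs per cell in the old neutrophil-like cells. Of 35 measured genes 31 were higher and 1 lower than in neutrophil-like cells relative to the median gene, against 47.8% and 23.6% of all genes, and 34 and 1 in plain CPM, against 60.5% and 15.5%. Against granule-high cells 28 of 34 were higher and 0 lower, with 40.1% of all genes higher and 25.3% lower.

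Hsp90b1 stood at 554.2 CPM (521 to 589) in the progenitor-like cells, Sec61b at 851.6 (810 to 894), Calr at 449.6 (420 to 481) and Hspa5 at 404.7 (376 to 435). Each of these lay above every range of the neutrophil-like cells. Ddost and Rpn2, at 6.06 and 7.01 CPM among neutrophil-like cells of old blood, reached 166.6 (149 to 186) and 193.8 CPM (174 to 215). Ddit3 was the exception, at 4.27 CPM (1.84 to 8.42). Xbp1 stood at 187.9 CPM (169 to 209), Atf4 at 86.0 (73.2 to 100) and Herpud1 at 56.1 (45.9 to 67.9). Sec62, Srp14 and Herpud1 were the measured genes within 1.5-fold of neutrophil-like cells, at relative log2 ratios of 0.14 ± 0.19, 0.32 ± 0.16 and 0.25 ± 0.28, with Sec62 at 122.8 CPM (107 to 140) and Srp14 at 176.7 (158 to 197).

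Monocytes and lymphocytes held more of the set than neutrophils in both libraries, while the CHOP gene Ddit3 was lower in them than in all neutrophils together. Summed over the 36 genes, young and old monocyte-like cells held 3855 and 5002 CPM and lymphocyte-like cells 3631 and 3480. Among young monocyte-like cells only 8 were classical, whereas 856 of the 1371 old ones were, so the pooled monocyte values rest on different cells. The heat map of levels by class shows each class.

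**Figure D5:**
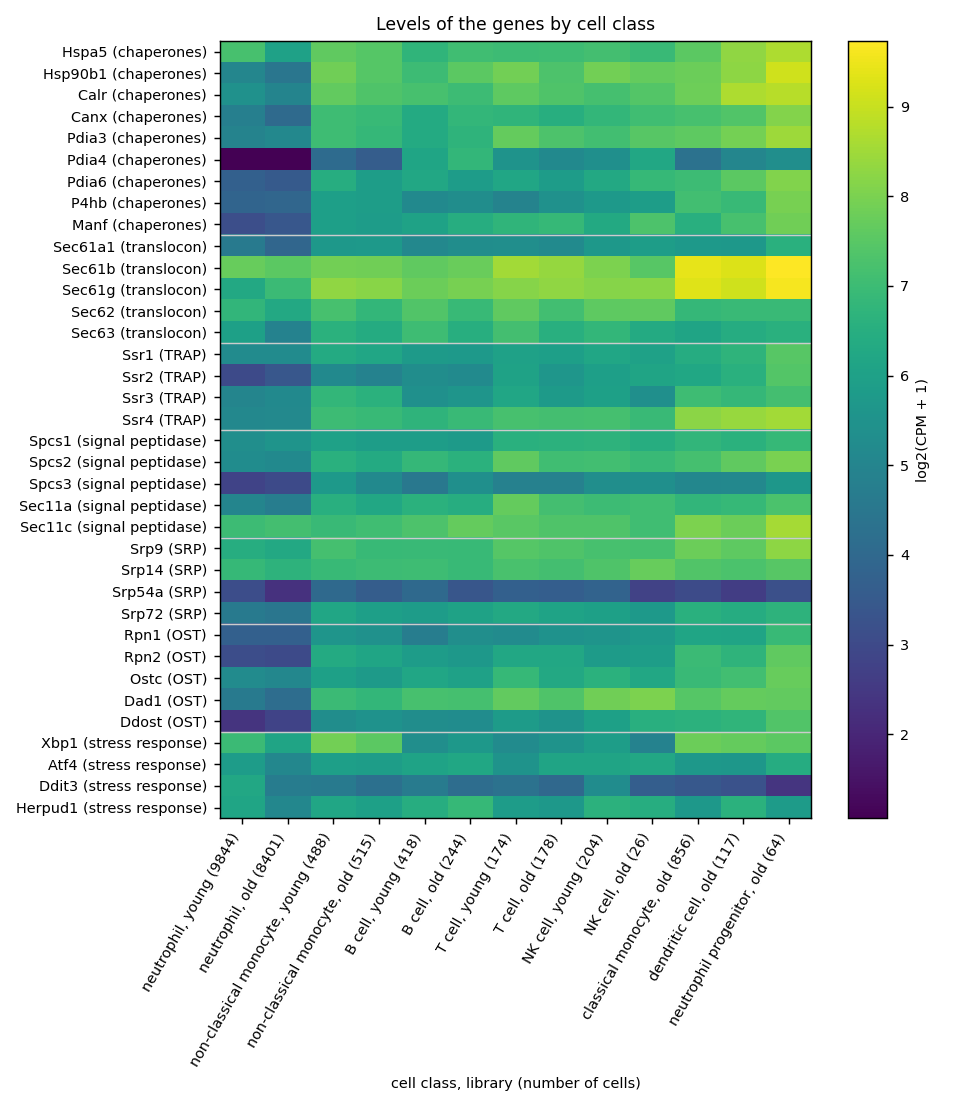
Heat map of log2(CPM + 1) of each of the 36 genes (rows, by role) in cell classes of the young and old library (columns, with the number of cells). Among the classes drawn, the neutrophil columns are the darkest for most chaperone and oligosaccharyltransferase genes and the progenitor column the brightest, whereas Ddit3 is brightest in young neutrophil-like cells.

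Relative to the median gene, 24 of 35 measured genes were higher in young monocyte-like than in young neutrophil-like cells and 1 lower, against 43.6% and 21.0% of all genes. In old cells it was 27 of 34 and 1, against 44.0% and 19.3%. The lower gene was Ddit3 in both. In plain CPM 27 and 32 were higher, against 47.7% and 59.4% of all genes. Lymphocyte-like cells had 28 of 36 higher and 2 lower in the young library (51.2% and 22.3% of all genes) and 22 of 35 and 2 in the old one (49.5% and 21.9%), the lower ones being Ddit3 and Xbp1. In plain CPM 28 were higher in both, against 52.1% and 63.4%. By class, 23 of 35 genes were higher in young non-classical monocyte-like cells (43.4% of all genes), 23 of 36 in B cell-like (49.5%), 28 of 35 in T cell-like (51.0%) and 28 of 36 in NK cell-like cells (49.8%). In the old library it was 29 of 35 in classical (45.4%) and 23 of 34 in non-classical monocyte-like cells (40.8%), 22 of 35 in B cell-like (48.9%) and 22 of 35 in T cell-like cells (49.4%). The median gene was higher by 0.45 and 0.53 in old monocyte-like and lymphocyte-like cells than in old neutrophil-like cells, and within 0.13 in the young library.

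All 5 oligosaccharyltransferase genes were higher in monocyte-like cells of both libraries, with medians of 2.29 and 2.70, as were all 4 TRAP genes (1.71 and 1.72). Of the chaperone genes 7 of 8 measured were higher in young and 8 of 8 in old cells. In lymphocyte-like cells 8 of 9 were higher in both. Dad1, a small oligosaccharyltransferase subunit, showed the contrast plainly: 23.1 CPM in young and 17.0 in old neutrophil-like cells, 127.9 (119 to 138) and 159.3 (154 to 164) in monocyte-like cells, and 182.3 (172 to 193) and 155 (144 to 167) in lymphocyte-like cells. Hsp90b1 stood at 228.1 CPM (216 to 241) and 208.6 (203 to 215) in monocyte-like cells and at 184.2 (174 to 195) and 176 (164 to 188) in lymphocyte-like cells. Calr stood at 201.9 CPM (190 to 214) and 209.8 (204 to 216) in the first and at 157.3 (148 to 167) and 141.9 (131 to 153) in the second. Dad1, Hsp90b1 and Calr were each above the neutrophil-like level in both libraries.

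Among monocyte and lymphocyte classes of old blood, Sec61b, Sec61g, Srp9 and Sec11c were highest in classical monocytes. In the old library Sec61b stood at 686.5 CPM (674 to 699) in classical and 230.4 (218 to 243) in non-classical monocyte-like cells, at 326.2 (301 to 353) in T cell-like and 217 (200 to 235) in B cell-like cells. With non-classical cells alone, its relative ratio to old neutrophil-like cells turned from 1.17 to -0.27. Sec61g stood at 633 CPM (621 to 645) in classical monocyte-like cells, against 292.3 (278 to 307) in non-classical, 310.9 (286 to 337) in T cell-like and 247.9 (229 to 268) in B cell-like cells. The order of T cell-like and non-classical cells in Sec61g does not hold beyond their intervals. Srp9 showed the same gap, with 219.5 CPM (213 to 227) in classical and 119.3 (111 to 129) in non-classical cells, and Sec11c likewise with 257.3 (250 to 265) and 134.8 (125 to 145). Srp14 varied less, from 118.6 CPM (106 to 132) in B cell-like to 163.9 (158 to 170) in classical monocyte-like cells. Sec62 lay between 110.6 CPM (102 to 120) in non-classical and 136.7 (121 to 154) in T cell-like cells.

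Hspa5 differed less between neutrophils and lymphocytes than Hsp90b1 or Calr. In the young library it stood at 194.8 CPM (183 to 207) in non-classical monocyte-like, 128.9 (113 to 147) in T cell-like, 140.5 (123 to 159) in NK cell-like and 104.6 (93.5 to 117) in B cell-like cells. All 3 lymphocyte values lay below the 148 CPM of young neutrophil-like cells, though the intervals of T cell-like and NK cell-like cells overlapped the neutrophil-like one. In the old library, where neutrophil-like cells held 64.3 CPM, Hspa5 stood at 185.2 (179 to 192) in classical and 175.3 (165 to 186) in non-classical monocyte-like, 129.8 (114 to 147) in T cell-like and 134.2 (121 to 149) in B cell-like cells. Dendritic cell-like cells of the old library (117 cells) held 311.8 CPM (287 to 338) of Hspa5.

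Pdia4, nearly absent from neutrophils, was more abundant in B cells than in T cells or non-classical monocytes. It stood at 70.3 CPM (61.4 to 80.3) in young and 110.4 (98.1 to 124) in old B cell-like cells. In T cell-like cells it stood at 44.7 (35.3 to 55.9) and 34.8 (26.9 to 44.3), and in non-classical monocyte-like cells at 16.2 (13 to 20) and 11.2 (8.59 to 14.3). Only 26 NK cell-like cells were in the old library, at 75.22 CPM (40.1 to 129) of Pdia4, which overlaps the B cell value. Pdia4 was named after its values were seen.

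Of the stress genes, Xbp1 was higher in monocytes than in neutrophils and lower in lymphocytes. Non-classical monocyte-like cells held 233.6 CPM (221 to 247) when young and 186.2 (175 to 198) when old, and old classical ones 219 (212 to 226). B cell-like cells held 40.0 (33.3 to 47.6) and 49.96 (41.9 to 59.2), and T cell-like cells 37.2 (28.6 to 47.5) and 44.3 (35.4 to 54.9), which do not differ beyond their intervals. The relative log2 ratio of Xbp1 in lymphocyte-like over neutrophil-like cells was -1.50 ± 0.17 in young and -1.07 ± 0.19 in old blood. Xbp1 reads do not tell the spliced from the unspliced form here.

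Ddit3 was higher in neutrophils than in monocytes or lymphocytes of either library. Against 76.3 and 25.1 CPM in neutrophil-like cells, non-classical monocyte-like cells held 23.6 (19.7 to 28.1) and 18.3 (15 to 22.2), B cell-like cells 24.6 (19.4 to 30.8) and 16.8 (12.2 to 22.5), T cell-like cells 19.2 (13.2 to 26.9) and 14.8 (9.82 to 21.4), and old classical monocyte-like cells 10.01 (8.59 to 11.6). The interval of the old neutrophil-like cells (24.0 to 26.3) lay above those of all 4 old classes. Its relative ratio was -1.81 ± 0.25 and -1.45 ± 0.17 in monocyte-like cells and -1.52 ± 0.21 and -1.17 ± 0.31 in lymphocyte-like cells. Old granule-high neutrophil-like cells, at 9.28 CPM (7.5 to 11.4), overlapped the classical monocyte-like value. Old platelet-like cells, of low depth, held 26.55 CPM (17.2 to 39.2) of Ddit3, which overlaps the neutrophil value. Herpud1 stood at 87.0 CPM (76.9 to 97.9) and 117.1 (104 to 131) in B cell-like cells and at 97.9 (83.7 to 114) in young NK cell-like cells, and Atf4 lay between 45.3 and 74.2 CPM in the B, T and non-classical classes of both libraries.

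Within the other classes, the intervals of most genes overlapped between ages. Non-classical monocyte-like cells (488 young, 515 old) had an old interval below the young one for 8 of 36 genes (24.8% of all genes) and above it for 0 (7.18%), the lower ones including Hsp90b1, Calr, Sec62, Srp9 and Xbp1. T cell-like cells (174 and 178) had 7 lower (10.9% of all genes), among them Sec62 and Hsp90b1, and 1 higher (8.27%), Atf4, at 45.3 (35.8 to 56.5) and 68.1 CPM (56.8 to 80.9). B cell-like cells (418 and 244) had 9 higher (10.6% of all genes), among them Hspa5, Hsp90b1, Pdia4 and Herpud1, and 3 lower (15.2%), among them Sec62. Sec62 was thus lower in the old library in all 3 classes, as in neutrophil-like cells, on the plain CPM scale. S100a8 and S100a9 made up a median of 0.16% to 0.204% of UMIs in cells of these classes in the young library and 0.711% to 0.875% in the old. Summed over cells, they took 8.13% of UMIs in old non-classical monocyte-like, 4.13% in B cell-like and 4.38% in T cell-like cells, against 1.4%, 1.37% and 0.731% in young ones, and 125 of the 515 old non-classical cells held 5% or more. Their part in the age differences within classes was not tested. Leaving out cells with 5% or more of these transcripts gave 25 of 35 and 28 of 35 genes higher in young and old monocyte-like cells (44.0% and 45.3% of all genes) and 28 of 36 and 21 of 35 in lymphocyte-like cells (51.3% and 49.8%). Of 10 plasma cell markers, 2 in young and 3 in old B cell-like cells stood at 20 CPM or more. Derl3 and Txndc5 are among these 10 markers and also in the wider lists of ER genes. Plasma cell markers summed to 340.2 CPM in young and 554.4 CPM in old B cell-like cells, and B cell markers to 17320 and 12550 CPM. The part of this shift in the B cell differences was not tested.

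A pair of entry genes was abundant outside the leukocytes. Sec11c stood at 1153 CPM (1070 to 1240) in young and 916.4 (856 to 980) in old platelet-like cells, against 127.4 and 139 CPM in neutrophil-like cells. Sec61g stood at 622.5 CPM (591 to 655) and 709.7 (687 to 733) in erythroid-like cells, above young classes of leukocytes but, in the old library, below the 784.3 CPM (745 to 825) of progenitor-like cells. Both were named after their values were seen.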

How the data were processed

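The files hold UMI counts per gene and cell barcode, deposited by the authors without normalization; Cell Ranger 7.2.0 is named per the file headers, and build mm10 per the submitters' processing notes. The annotation release and the way cells were called are not given in the sources used here, nor is the relation of the barcodes to Rhapsody cell labels. Gene positions and exons came from GENCODE vM21, and promoters from RefSeq (GRCm38.p6).

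Barcodes under 200 genes or over 20% mitochondrial UMIs were dropped (678 young, 817 old). The libraries were clustered together in scanpy 1.11.5 (Python 3.11.15, leidenalg 0.10.2) without integration, on 2000 variable genes per library from which the genes described and their wider lists were left out, with 30 components, 15 neighbours and Leiden resolution 0.6. Monocyte, NK and T clusters were divided again at 0.3. Clusters were named from marker lists with at least 3 markers detected. The guards that left mixed clusters unnamed (1151 young and 1884 old cells) were set after the data were seen, and numbers of cells per class rest on these rebuilt names. No doublet caller was run.

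UMIs were summed per library and class. No test was made, because each age has 1 library and replicates are lacking. Log2 ratios used 1 CPM as pseudocount, and the shift of the median gene came from genes with a mean of 50 CPM upward. Levels by range and class were given for genes at 50 CPM or more with one of the 3 largest granule ratios of their role and for Hspa5, Xbp1, Atf4, Ddit3, Sec61b, Srp14 and Calr. Other genes with such detail were chosen after their values were seen. The genes and lists were chosen with earlier results of these data known. Ratios and calls were tested on simulated counts, where unchanged genes were called more often in the comparisons with 29 or 106 young cells than in the others, so the calls of those comparisons are less firm.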

Additional observations from a re-analysis of the deposited data

How the results depend on the processing

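No paired analysis was possible because each age has 1 library and the labels give no shared replicate numbers. Counts of higher genes, 97 values in all over the alternatives, stayed within 1.5 times the reported count in 80 and moved in 17. In plain CPM, not centred on the median gene, the higher genes numbered 1 in place of 10 for old against young neutrophils, 0 in place of 1 for cells under 0.1%, 6 in place of 11 between 0.1% and 1%, and 7 in place of 21 and 12 in place of 23 for granule-high cells, young and old. With a floor of 50 CPM, which leaves fewer genes measured, they numbered 2 for old against young, 3 between 0.1% and 1%, 6 and 5 for granule-high cells, 14 for young monocytes, and 14 and 12 for lymphocytes, young and old. No floor gave 2 for cells under 0.1%. For old against young, equal weight per cell gave 4, leaving out granule-high cells gave 6, and, added after seeing the data, the mean of ratios within clusters gave 1. Taking 1% or more against under 0.1%, also added later, gave 10 for the young library. Counts with a floor of 50 CPM, no floor, equal weight per cell or without granule-high cells are given without the share of all genes. They show only how far the count moved. The cause of these moves was not tested. Sec61b in old monocytes turned from 1.17 to -0.27 with non-classical cells alone, and this alternative leaves out the classical cells. The young granule-high range holds 29 cells, which limits its ratios.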
